A study of Mus musculus with 15 samples.

Results

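Cnep1r1 and 4 genes of the lipin pathway, Ctdnep1, Lpin1, Lpin2 and Lpin3, were described in the kidneys of ageing mice, 5 genes of 33058 in the deposited table of linear transcripts. Cnep1r1 was chosen on the FPKM of 1 of its transcripts, ENSMUST00000095214, at 24 against 3 months, so its values are given as a description with no test. The other 4 genes were listed for their place in the same pathway. Each gene value is the sum of FPKM (sequenced fragments divided by transcript length and by the size of the library) over the transcripts assigned to the gene by an exact match, by containment, by shared splice junctions or by exon overlap. This gave 44 member transcripts, 8 of Cnep1r1, 7 of Ctdnep1, 8 of Lpin1, 16 of Lpin2 and 5 of Lpin3, out of 129029. Among 11929 circular RNAs, 4 came from Lpin1 and 7 from Lpin2.

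RNA was sequenced from the kidneys of 15 male C57BL/6 mice (C57BL/6J in the study's methods), 5 young (3-month-old), 5 middle-aged (12-month-old) and 5 old (24-month-old), with 1 library per mouse. All mice were kept on standard chow and tap water with no allele or treatment named, so age was the only labelled difference. Mice are called by the replicate numbers of the labels, 5 to 9 at 3 months, 17 to 21 at 12 months and 31 to 35 at 24 months. Aligned bases per library ranged from 5.03 to 8.03 Gb, and the median library held 6.04 Gb at 3 months, 7.17 Gb at 12 months and 7.00 Gb at 24 months. The tissue label matched the marker genes in every mouse, with 4 proximal tubule markers summing to between 1219 and 1770 FPKM and 4 markers of the thick limb and distal tubule to between 1054 and 1360 FPKM.

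Lipins are phosphatidate phosphatases, which turn phosphatidic acid into diacylglycerol, the common precursor of triacylglycerol, phosphatidylcholine and phosphatidylethanolamine. They are held inactive in the cytosol by phosphorylation, and Ctdnep1, a protein phosphatase of the nuclear envelope and endoplasmic reticulum, removes these phosphates. Cnep1r1 is the small membrane protein that binds and stabilises Ctdnep1, and loss of the yeast counterparts of either partner expands the nuclear membrane.

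Cnep1r1 lies on the forward strand of chr8:88118769-88135110 (GRCm38). Its transcript ENSMUST00000095214 (Cnep1r1-201) has 6 exons, 1731 bases and a coding part of 375 bases. GENCODE M21, which places this transcript at the coordinates of the file, lists 5 further transcripts of the gene. Several of them differ from Cnep1r1-201 in exon 3 or in how the coding part ends, and these annotated stretches are shown. The largest rises in mean share with age were in assembled transcripts, whose exon positions were not used. The stretches therefore do not show which form was present where the share of Cnep1r1-201 was low. ENSMUST00000127490, annotated for nonsense-mediated decay, skips exon 3 (chr8:88125082-88125155), whose 74 bases are in capitals in the first sequence, between 15 bases of exon 2 and 15 of exon 4.

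Cnep1r1-201 exon 3: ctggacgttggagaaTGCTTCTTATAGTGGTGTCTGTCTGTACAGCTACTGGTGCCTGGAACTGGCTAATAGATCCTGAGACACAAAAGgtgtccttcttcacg
ENSMUST00000127490 exon 2 to exon 4: ctggacgttggagaagtgtccttcttcacg

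Capitals in the next 3 sequences mark the coding bases that follow exon 4 up to the stop codon, after the last 15 bases of exon 4. Cnep1r1-201 ends with exon 5 and a coding stretch in exon 6 (chr8:88130347-88133826, an intron between them). Cnep1r1-202 (ENSMUST00000117775) shares exon 5 and codes for 339 bases. Cnep1r1-203 (ENSMUST00000121097) reads on past exon 4 for 37 bases (chr8:88129805-88129841) and codes for 318.

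Cnep1r1-201 coding end: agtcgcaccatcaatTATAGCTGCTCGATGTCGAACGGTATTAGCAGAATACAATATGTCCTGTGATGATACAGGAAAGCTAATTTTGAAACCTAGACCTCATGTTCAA
Cnep1r1-202 coding end: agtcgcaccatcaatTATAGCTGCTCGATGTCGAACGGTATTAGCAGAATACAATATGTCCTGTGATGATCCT
Cnep1r1-203 coding end: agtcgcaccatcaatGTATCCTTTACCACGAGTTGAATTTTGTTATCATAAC

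The gene value of Cnep1r1 was lower in 4 of the 5 old mice than in any young mouse. At 3 months it was 11.1, 11.6, 12.1, 12.99 and 11.8 FPKM in mice 5 to 9. At 12 months it was 11.6, 12.9, 13.1, 4.45 and 10.2 FPKM in mice 17 to 21. At 24 months it was 12.1, 6.03, 5.31, 7.20 and 6.30 FPKM in mice 31 to 35. Mouse 31 therefore stood within the range of the young mice, and mouse 20 below every mouse of all 3 ages. The means were 11.9 ± 0.699, 10.4 ± 3.53 and 7.39 ± 2.73 FPKM (SD, n = 5 each). On the log2(FPKM + 1) scale the gene differed by -0.67 (SE 0.18) at 24 against 3 months, by -0.25 (SE 0.24) at 12 against 3 months and by -0.42 (SE 0.29) at 24 against 12 months. Without mouse 20 the 12 against 3 months value was -0.0015, and without mouse 31 the 24 against 3 months value was -0.85. In bulk tissue, less RNA per cell and fewer cells that make the RNA cannot be told apart.

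The transcript on which the gene was chosen, ENSMUST00000095214, had a lower mean at each later age. It was at 8.85, 7.57, 9.03, 8.34 and 8.20 FPKM in mice 5 to 9, at 7.87, 5.14, 5.42, 1.79 and 5.47 FPKM in mice 17 to 21, and at 2.57, 1.64, 0.920, 1.01 and 0.707 FPKM in mice 31 to 35. Old and young mice did not overlap, while mouse 17 lay among the young mice and mouse 20 among the old ones. The means were 8.40 ± 0.578, 5.14 ± 2.17 and 1.37 ± 0.758 FPKM. The log2(FPKM + 1) difference was -2.04 (SE 0.19) at 24 against 3 months, -0.71 (SE 0.27) at 12 against 3 months and -1.33 (SE 0.32) at 24 against 12 months. The mean read depth over this transcript was between 42.0 and 55.3 at 3 months and between 4.94 and 18.9 at 24 months.

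As a share of the gene's FPKM, ENSMUST00000095214 made up 79.6%, 65.4%, 74.5%, 64.2% and 69.6% in the young mice. It made up 68.1%, 40.0%, 41.4%, 40.1% and 53.3% at 12 months, and 21.2%, 27.3%, 17.3%, 14.0% and 11.2% at 24 months. The share separated the old mice from every mouse of both other ages, also mice 20 and 31, whose gene values stood apart from those of their age. The mean share was 70.7% ± 6.42, 48.6% ± 12.2 and 18.2% ± 6.29. In all 10 mice of 3 and 12 months ENSMUST00000095214 was the transcript with the highest FPKM of the gene, and in all 5 old mice it was MSTRG.36074.4.

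**Figure D1:**
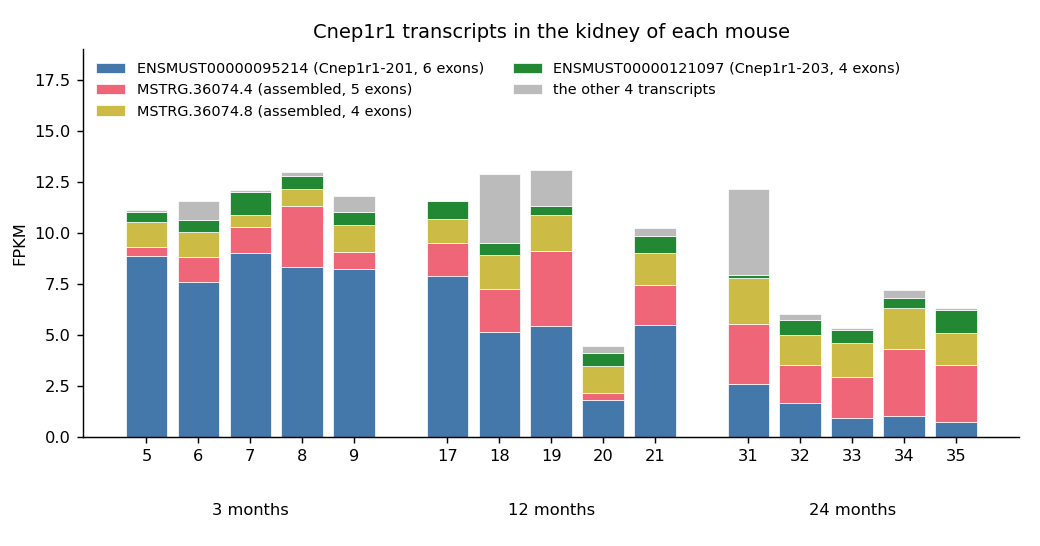
FPKM of the Cnep1r1 transcripts, stacked, in each of 15 mice (replicate numbers on the x axis, grouped by age). The blue segment, ENSMUST00000095214, runs from 7.57 to 9.03 FPKM at 3 months and from 0.707 to 2.57 FPKM at 24 months, and the red and yellow segments are present at every age.

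The remaining Cnep1r1 transcripts together had a higher mean in the old mice. Their sum was 3.52 ± 0.903 FPKM at 3 months, with a range of 2.27 to 4.65, and 6.02 FPKM at 24 months, with a range of 4.38 to 9.55 and mouse 31 the highest. MSTRG.36074.4, an assembled transcript of 5 exons and 2913 bases that shares splice junctions with the gene (chr8:88118791-88135400), had a mean of 1.36 ± 0.953 FPKM at 3 months, 1.95 ± 1.20 at 12 months and 2.59 ± 0.618 at 24 months. MSTRG.36074.8, of 4 exons and 3209 bases (chr8:88123491-88132114), had means of 1.03 ± 0.288, 1.51 ± 0.244 and 1.78 ± 0.332 FPKM, and its old mice lay above all young mice. The 3 annotated coding transcripts summed to 9.10 ± 0.725 FPKM at 3 months and to between 1.52 and 2.73 FPKM in the old mice. The shares of MSTRG.36074.4 were 11.1% ± 7.07, 17.1% ± 7.56 and 36.8% ± 9.12 at the 3 ages, and those of MSTRG.36074.8 were 8.71% ± 2.74, 16.5% ± 7.96 and 25.3% ± 4.67. Shares of 1 gene add up to a fixed total, so a lower share of 1 transcript comes with higher shares of others. The exon positions of the assembled transcripts were not used here, and whether they code for the same protein was not examined.

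**Figure D2:**
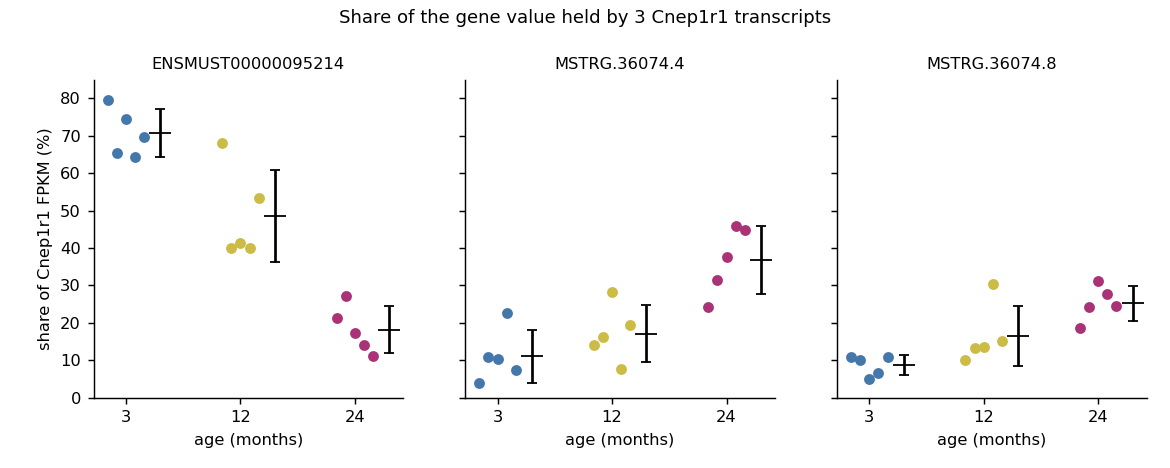
Share of the Cnep1r1 FPKM (percent) held by ENSMUST00000095214, MSTRG.36074.4 and MSTRG.36074.8 in each mouse (points) by age, with the mean and SD of 5 mice (bars). The share of ENSMUST00000095214 lies between 64.2% and 79.6% at 3 months and between 11.2% and 27.3% at 24 months, and the shares of both assembled transcripts have their highest means at 24 months.

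Cnep1r1-203, the coding transcript with the shorter end, had means of 0.704 ± 0.232, 0.662 ± 0.186 and 0.635 ± 0.362 FPKM at 3, 12 and 24 months. ENSMUST00000127490, the transcript without exon 3, was listed at 0 in 8 of 15 mice and was highest in mouse 31 at 2.44 FPKM. Mouse 31 also had the highest value of ENSMUST00000128290, a retained-intron transcript, at 1.76 FPKM. These transcripts made up 20.1% and 14.5% of its gene value, and neither is annotated as making the protein. MSTRG.36075.1, an assembled transcript of 1 exon inside a Cnep1r1 intron, is not part of the gene value and was listed at 0 in mice 31 and 32 and at between 1.73 and 3.77 FPKM in the others.

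FPKM divides by length, and the assembled Cnep1r1 transcripts are longer than ENSMUST00000095214. FPKM multiplied by length, which stands for fragments, gave the gene 24.0 ± 2.06 units at 3 months, 22.5 ± 7.21 at 12 months and 18.7 ± 5.30 at 24 months. On this scale the gene differed by -0.38 (SE 0.16) at 24 against 3 months, against -0.67 for the FPKM sum, while the share of ENSMUST00000095214 still fell from 60.9% ± 7.14 to 12.4% ± 4.91 in the mean. The length weight thus changed the gene difference, while the transcript's share fell on both scales. Both scales keep the same division of fragments among transcripts. How far the share depends on that division was therefore not tested.

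Ctdnep1, the catalytic partner, had values that overlapped between all ages. It was at 31.1, 30.5, 42.0, 31.6 and 17.8 FPKM in mice 5 to 9, at 22.6, 38.0, 24.6, 14.7 and 25.3 FPKM in mice 17 to 21, and at 19.5, 50.8, 32.7, 38.7 and 30.8 FPKM in mice 31 to 35. The log2(FPKM + 1) difference was 0.15 (SE 0.27, limma unadjusted p = 0.583, Benjamini-Hochberg adjusted p = 0.808) at 24 against 3 months. It was -0.29 (SE 0.26, adjusted p = 0.655) at 12 against 3 months and 0.44 (SE 0.28, unadjusted p = 0.145, adjusted p = 0.820) at 24 against 12 months. Only the last comparison passed an unadjusted p of 0.05 when a mouse was left out, at 0.62 (unadjusted p = 0.0353, limma) without mouse 31.

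These Ctdnep1 values cannot be told apart from those of its neighbour Gabarap, which encodes an autophagy protein and lies downstream on the same strand. Ctdnep1 spans chr11:69981156-69990601 and Gabarap chr11:69991143-69994951. An assembled transcript of 12 exons and 4065 bases, MSTRG.6115.1 (chr11:69980648-69995591), covers both genes and is assigned to Ctdnep1. It was at 26.5, 0, 41.3, 28.04 and 17.6 FPKM at 3 months, at 0, 36.6, 0, 12.5 and 0 FPKM at 12 months and at 14.7, 47.2, 30.2, 32.5 and 0 FPKM at 24 months. It thus made up between 75.5% and 98.9% of Ctdnep1 in 10 mice and was listed at 0 in the other 5.

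In those 5 mice the value of Ctdnep1 came from transcripts that end inside the gene. ENSMUST00000108593, the annotated coding transcript of 8 exons, was at 13.7 FPKM in mouse 6, at 11.5, 16.6 and 8.57 FPKM in mice 17, 19 and 21 and at 5.12 FPKM in mouse 35. The retained-intron transcript ENSMUST00000131531 was at 13.05, 9.39, 7.25, 6.17 and 2.54 FPKM in mice 6, 17, 19, 21 and 35. It held 42.8%, 41.5%, 29.4%, 24.4% and 8.24% of the gene value there. MSTRG.6115.4, an assembled transcript also of 8 exons, reached 9.53 FPKM in mouse 21 and 21.9 FPKM in mouse 35 and was at or below 0.704 FPKM in the others. The Gabarap value was 90.4 FPKM in mouse 6, 113, 109 and 132 FPKM in mice 17, 19 and 21 and 74.9 FPKM in mouse 35, and it ranged from 5.73 to 102 FPKM in the other 10 mice.

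Added up as FPKM times length, Ctdnep1 and Gabarap together were steadier than Ctdnep1 alone, with a coefficient of variation over the 15 mice of 14.1% against 63.0%. The sum was 183 ± 24.4 units at 3 months, 171 ± 27.6 at 12 months and 171 ± 25.5 at 24 months. On log2 it differed by -0.10 (SE 0.13, limma unadjusted p = 0.460) at 24 against 3 months, -0.11 (SE 0.14, unadjusted p = 0.454) at 12 against 3 months and 0.01 (SE 0.14, unadjusted p = 0.950) at 24 against 12 months, so no difference with age was detected in the pair.

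**Figure D3:**
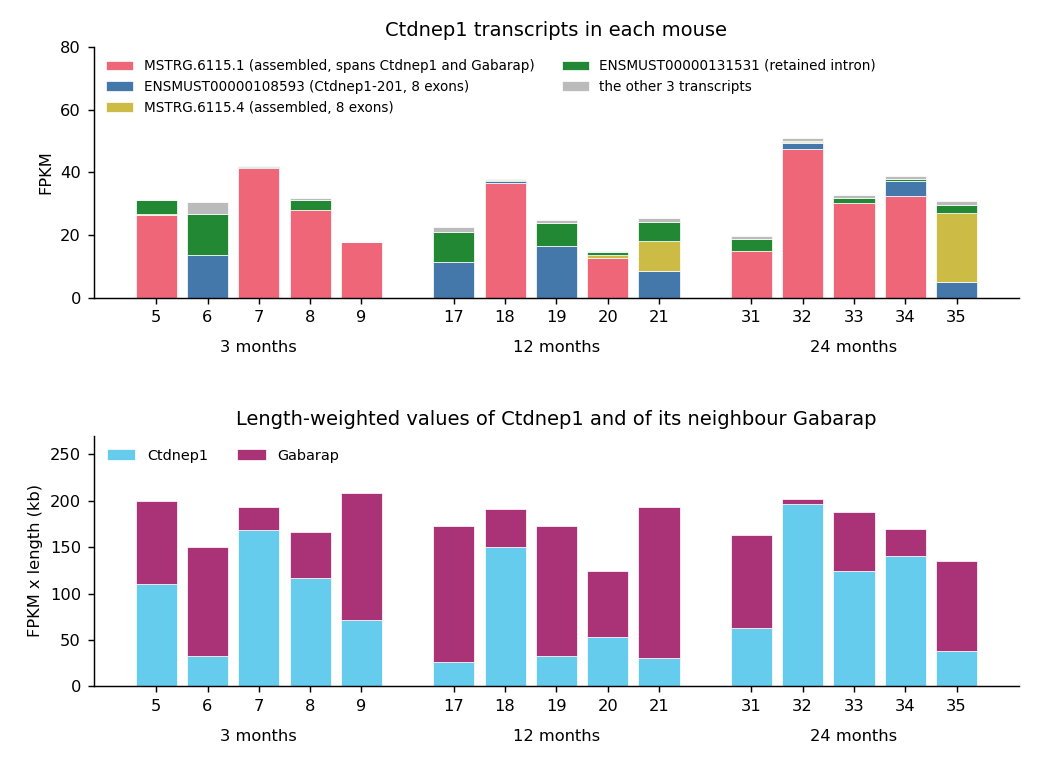
Top, FPKM of the Ctdnep1 transcripts, stacked, in each mouse. Bottom, FPKM times transcript length (kb) of Ctdnep1 and of Gabarap, stacked. MSTRG.6115.1 (red) is listed at 0 in mice 6, 17, 19, 21 and 35, where the Gabarap part is large, and the 2 genes together lie between 125 and 208 units in all mice.

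Of the lipins, Lpin2 was the one whose value passed an unadjusted p of 0.05. Lpin2 was at 26.4, 27.2, 29.4, 35.03 and 33.3 FPKM at 3 months, at 26.2, 22.3, 23.5, 24.8 and 17.3 FPKM at 12 months and at 24.2, 24.5, 23.6, 26.3 and 24.7 FPKM at 24 months. Every young mouse lay above every older mouse, although mouse 5 at 26.4 FPKM was close to mice 17 and 34. Lpin2 was lower by 0.28 on the log2 scale (-0.28, SE 0.08) at 24 against 3 months (limma unadjusted p = 0.0088, adjusted p = 0.161). At 12 against 3 months it differed by -0.40 (SE 0.12, limma unadjusted p = 0.00889, adjusted p = 0.186). Both comparisons use the same young mice, and neither difference reached the log2 change of 1 that a call also required. At 24 against 12 months Lpin2 differed by 0.12 (SE 0.10, unadjusted p = 0.261, limma). On the scale of FPKM times length the 24 against 3 months difference was -0.19 (SE 0.12) with an unadjusted p of 0.161.

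Thus 1 of the 4 partner genes passed as lower at 24 against 3 months, where 3.47% of the 31755 genes tested did so and 11.4% passed as higher. Between 12 and 3 months 1 of 4 was again lower (2 without mouse 7), where 2.9% of 31637 genes passed as lower and 11.4% as higher. At 24 against 12 months 0 of 4 passed in limma (1 without mouse 31), where 3.07% of 32282 genes passed as higher and 3.36% as lower. All 4 have a mean of at least 1 FPKM. Of all genes at that level 6.35% passed as lower at 24 and 4.86% at 12 against 3 months, and 12.4% and 13.6% as higher. At 24 against 12 months 3.5% of them passed as higher and 4.97% as lower.

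Lpin1, known also as a coactivator of fatty acid oxidation genes in the fasted liver, did not separate the ages. It was at 23.5, 15.6, 13.3, 23.6 and 18.98 FPKM at 3 months, at 18.6, 13.7, 16.5, 15.9 and 12.0 FPKM at 12 months and at 14.5, 15.7, 18.7, 22.8 and 17.4 FPKM at 24 months. The young mice spread most, with mice 5 and 8 above all others and mouse 7 below all but 1. Lpin1 differed by -0.07 (SE 0.18, limma unadjusted p = 0.706, adjusted p = 0.873) at 24 against 3 months, by -0.28 (SE 0.17, unadjusted p = 0.147, adjusted p = 0.518) at 12 against 3 months and by 0.21 (SE 0.14, adjusted p = 0.820) at 24 against 12 months. The 12 against 3 months difference reached an unadjusted p of 0.0372 without mouse 7 (-0.39) and of 0.0378 on the scale of FPKM times length (-0.40).

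Lpin3, which has the same enzyme activity as the other lipins, was the lowest of the 3 in every mouse. Its range was 2.52 to 4.53 FPKM at 3 months, 2.66 to 3.94 FPKM at 12 months and 2.81 to 4.15 FPKM at 24 months. Its log2 differences were 0.06 (SE 0.14) at 24 against 3 months, 0.04 (SE 0.14) at 12 against 3 months and 0.02 (SE 0.12) at 24 against 12 months, with adjusted limma p-values of 0.865, 0.908 and 0.985.

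**Figure D4:**
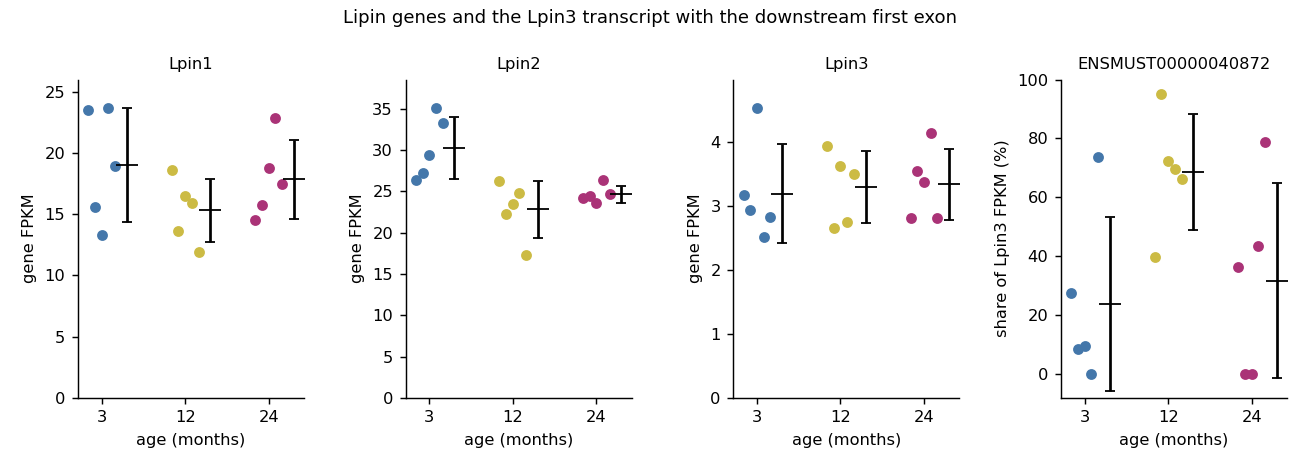
Gene FPKM of Lpin1, Lpin2 and Lpin3 and the share of Lpin3 held by ENSMUST00000040872 (percent), in each mouse (points) by age, with the mean and SD of 5 mice (bars). The 5 young mice lie above all older mice for Lpin2, the ages overlap for Lpin1 and Lpin3, and the share of ENSMUST00000040872 has its highest mean, 68.6%, at 12 months.

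Among the 5 genes the order of mean FPKM over the 15 mice was Ctdnep1 (30.1), Lpin2 (25.9), Lpin1 (17.4), Cnep1r1 (9.92) and Lpin3 (3.28). Ctdnep1 was above Lpin2 in 10 of 15 mice, so the first 2 were not separated beyond their spread. Each of the later steps held in 15 of 15 mice, from Lpin2 to Lpin1, Lpin1 to Cnep1r1 and Cnep1r1 to Lpin3. This order is per length and takes Ctdnep1 with the transcript that spans Gabarap. As FPKM times length, Lpin1 had the highest mean (199 units), before Lpin2 (172), Ctdnep1 (90.4), Cnep1r1 (21.7) and Lpin3 (9.94), since the Lpin1 transcripts are long. The coefficient of variation over all mice was 16.6% for Lpin2, 18.2% for Lpin3, 21.2% for Lpin1, 31.3% for Cnep1r1 and 32.4% for Ctdnep1.

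The transcripts of the lipins differed in kind. Ensembl transcripts made up 11.7% ± 8.25 of the Lpin1 FPKM at 3 months, and the rest lay in assembled transcripts, which were between 7849 and 15846 bases long where their mean was at least 0.5 FPKM. The annotated coding transcript ENSMUST00000067124 of 21 exons and 5581 bases had means of 2.12 ± 1.71, 2.41 ± 1.32 and 2.96 ± 2.67 FPKM at 3, 12 and 24 months. For Lpin2 the highest transcript in every mouse was MSTRG.16079.3 (20 exons, 8226 bases), at 7.33 ± 0.808, 6.83 ± 0.830 and 7.45 ± 0.460 FPKM, and 6 annotated transcripts of Lpin2 with a mean of at least 0.5 FPKM are retained-intron transcripts.

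Of the Lpin2 transcripts, 3 of these retained-intron ones passed as lower at 24 against 3 months in the fit of all transcripts. ENSMUST00000140150, a short retained-intron transcript of 357 bases, was at 5.97, 4.92, 6.10, 5.05 and 6.00 FPKM in the young mice and at 3.30, 3.64, 4.21, 3.96 and 3.92 FPKM in the old mice, with no overlap. It fell by 0.46 on the log2 scale at 24 against 3 months (limma unadjusted p = 0.00142, adjusted p = 0.272). ENSMUST00000149973, of 677 bases, also fell by 0.46 (unadjusted p = 0.0106, adjusted p = 0.454, limma), and ENSMUST00000142842 fell by 0.35 (unadjusted p = 0.0349, adjusted p = 0.593, limma). MSTRG.16079.3 differed by 0.02 (SE 0.10, unadjusted p = 0.817, limma). The assembled MSTRG.16079.6 (28311 bases) and MSTRG.16079.9 (2998 bases) also had lower means in the old mice without passing, 2.95 against 3.72 FPKM and 3.04 against 3.74 FPKM (limma unadjusted p = 0.186 and 0.113). On the scale of FPKM times length the long MSTRG.16079.6 weighs most and ENSMUST00000140150 and ENSMUST00000149973 weigh little. The 3 retained-intron transcripts were the only ones of 23 partner transcripts with a mean of at least 0.5 FPKM to pass an unadjusted p of 0.05 at 24 against 3 months, where 7.9% of 124719 transcripts did. Without mouse 6 the count was 5. The share of all transcripts, here and below, covers every level, and no share at a mean of at least 0.5 FPKM is given. Transcripts of 1 gene share reads, so they are not separate measurements.

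At 12 against 3 months 7 of the 23 partner transcripts passed, where 7.46% of 124761 transcripts at every level did. Between 5 and 11 passed with each mouse left out in turn, 11 without mouse 6. The 7 share reads within their genes and are not separate measurements. The same 3 Lpin2 transcripts were lower, by between -0.48 and -0.54 on log2. For Lpin1, MSTRG.7699.3 (17 exons, 15188 bases) was at 5.89, 3.88, 4.27, 9.03 and 6.97 FPKM at 3 months and between 2.24 and 3.37 FPKM at 12 months, with no overlap (log2 difference -0.78, unadjusted p = 0.00346, adjusted p = 0.440, limma). MSTRG.7699.4 was lower (-0.43) and MSTRG.7699.1 higher (0.82) at 12 months, with unadjusted limma p-values of 0.0214 and 0.0297. At 24 against 12 months 2 of the 23 passed, where 4.47% of 125282 transcripts did. They were MSTRG.7699.3, higher at 24 months by 0.52 (unadjusted p = 0.0303, limma), and ENSMUST00000040872 of Lpin3, lower by 0.82 (unadjusted p = 0.0395, limma). Leaving out each mouse gave between 0 and 3 here, 0 without mouse 21 or 33 and 1 without mouse 19, 20, 31 or 34.

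The 2 Lpin3 transcripts with a mean of at least 0.5 FPKM are coding. They share 18 of 20 exons and the same coding part of 2544 bases, and start 7438 bases apart. ENSMUST00000109455 and ENSMUST00000109457, also coding but lower, start at chr2:160888108 and chr2:160888171. ENSMUST00000109456 starts with the exon chr2:160880670-160880796 and ENSMUST00000040872 with the exon chr2:160888108-160888217. ENSMUST00000040872 was at 0.870, 0.253, 0.435, 0 and 2.09 FPKM in mice 5 to 9 and at 1.57, 2.53, 2.62, 1.92 and 2.33 FPKM in mice 17 to 21. At 24 months it was at 1.03, 0, 0, 1.81 and 2.22 FPKM in mice 31 to 35. All 12-month-old mice thus stood above 4 of the 5 young mice, with mouse 9 inside their range. The transcript was higher at 12 than at 3 months by 0.99 on the log2 scale (SE 0.28, unadjusted p = 0.00562, adjusted p = 0.478, limma).

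ENSMUST00000109456, with the upstream first exon, had means of 1.58 ± 0.875, 0.558 ± 0.513 and 1.28 ± 1.13 FPKM at 3, 12 and 24 months. It differed by -0.71 (SE 0.32, unadjusted p = 0.0519, limma) at 12 against 3 months. The gene value of Lpin3 did not move with these differences, and the share held by ENSMUST00000040872 was 23.9% ± 29.6, 68.6% ± 19.7 and 31.8% ± 33.1 at the 3 ages. This share leaves out ENSMUST00000109455, which starts at the same position and held 4.83% ± 7.53, 5.09% ± 7.25 and 12.8% ± 15.2. In mouse 33, where ENSMUST00000040872 was at 0, ENSMUST00000109455 was at 1.31 FPKM, 38.7% of the gene. Because ENSMUST00000109456 and ENSMUST00000040872 differ only in the first exon and by a few bases at the end, few fragments can tell them apart.

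The 11 circular RNAs of Lpin1 and Lpin2 all had a fitted level below that of the young mice at 12 months, and 7 passed an unadjusted p of 0.05, where 23.7% of all circular RNAs did. This share and those below count both directions. The share of all circular RNAs that was lower is not given here, so whether the fall was particular to these genes was not tested. None of the 7 had an adjusted p under 0.05 in edgeR. Such rings form when the end of an exon is joined back to the start of an earlier one, or from intron lariats (ciRNA). circRNA4809, made of 6 exons of Lpin1 (chr12:16560982-16568519), was at 201, 109, 126, 195 and 173 CPM (estimated counts scaled by library) in mice 5 to 9 and at 125, 109, 114, 108 and 116 in mice 17 to 21. In the old mice it was at 104, 136, 144, 159 and 105 CPM. Mice 5, 8 and 9 stood above all other mice, and mouse 6 lay among the 12-month-old ones. circRNA4809 differed by -0.50 on log2 at 12 against 3 months (edgeR quasi-likelihood unadjusted p = 0.00554, adjusted p = 0.0653). circRNA5730 of Lpin1 (chr12:16553949-16561051), which overlaps circRNA4809, differed by -0.64 (edgeR unadjusted p = 0.00603, adjusted p = 0.0679).

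In edgeR 7 of the 11 circular RNAs had an unadjusted p under 0.05 at 12 against 3 months, out of 11923 circular RNAs tested in all. All 4 of Lpin1 were among them, together with circRNA8898, ciRNA367 and ciRNA442 of Lpin2. The log2 differences of the 11 lay between -0.64 and -0.12, and the adjusted p-values of the 7 between 0.0653 and 0.160. DESeq2 also gave 7, and between 4 and 9 passed with each mouse left out, 4 without mouse 8 and 4 without mouse 21. At 24 against 3 months 0 of 11 passed in edgeR and 0 in DESeq2, where 28.8% of 11924 did, and 2 passed without mouse 5 or without mouse 6. At 24 against 12 months circRNA5730 and circRNA8898 passed, 2 of 11, where 16.9% of 11925 did. Several of these circles overlap, as circRNA1549 and circRNA296 of Lpin2 (chr17:71222055-71233927 and chr17:71222055-71231519) do, so they are not separate measurements. Leaving out each mouse gave between 1 and 5 at 24 against 12 months, 1 without mouse 18, 20, 21, 32 or 34, 4 without mouse 31 and 5 without mouse 35.

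Linear and circular values of each lipin went up and down together across mice. Between the Lpin1 FPKM and the sum of its 4 circular RNAs Pearson's r was 0.88 over 15 mice (permutation p = 0.00018, adjusted for 2 relations 0.0002) and Spearman's rho was 0.78 (permutation p = 0.00096). For Lpin2 and its 7 circular RNAs r was 0.88 (permutation p = 0.0002, adjusted 0.0002) and rho was 0.54 (permutation p = 0.0403). Without the 2 mice farthest from the median FPKM r was 0.77 for Lpin1 and 0.81 for Lpin2, and after subtracting the mean of each age it was 0.87 and 0.88. These relations were examined after the values had been seen. Both values come from the same libraries, and whether fragments of linear RNA entered the circular counts is not given in the sources used here.

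The genes around the lipin step were taken as 9 lists with 86 genes, all of them in the table. At 24 against 3 months 11 of the 86 passed as higher and 6 as lower. Among the 77 of them with a mean of at least 1 FPKM, 10 were higher and 6 lower, and of all 13360 genes at that level 12.4% were higher and 6.35% lower. The median log2 difference was 0.01 over the 86 genes and 0.02 over all genes tested. For 12 against 3 months 14 passed as higher and 5 as lower, with medians of 0.05 and 0.02, and at 24 against 12 months 2 were higher and 8 lower, with medians of -0.03 and -0.0013. With a mean of at least 1 FPKM, 12 of 78 pathway genes were higher and 4 lower at 12 against 3 months, against 13.6% and 4.86% of all such genes, and 1 of 77 was higher and 6 lower at 24 against 12 months, against 3.5% and 4.97%. Without mouse 31 the 24 against 3 months total went from 17 to 10, and the 24 against 12 months total went from 10 to 6 without mouse 17, 18 or 34 and to 5 without mouse 33.

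In the synthesis of phosphatidylcholine and phosphatidylethanolamine, 2 of 11 genes passed as lower and 0 as higher at 24 against 3 months in limma. Of all genes 3.47% passed as lower there, and of those with a mean of at least 1 FPKM 6.35%. At 12 against 3 months 2 of the 11 passed as lower and 1 as higher, where 2.9% and 11.4% of all genes did. At 24 against 12 months 1 passed as lower, where 3.36% of all genes did. Chka, choline kinase alpha, which starts the choline branch, had a mean of 19.3 ± 4.68 FPKM at 3 months and 10.1 ± 1.81 FPKM at 24 months, with ranges of 14.0 to 25.2 and 8.22 to 12.1 FPKM that did not overlap. It fell by 0.86 on the log2 scale (SE 0.17, limma unadjusted p = 0.000595, adjusted p = 0.0495), the only one of the 86 genes with an adjusted p under 0.05 in any of the 3 comparisons. Etnk1, an ethanolamine kinase, fell by 0.24 (adjusted p = 0.209, limma). Chka at 12 against 3 months again had no overlap (12.3 ± 1.45 FPKM, -0.58, adjusted p = 0.139, limma), and Pcyt1a, the enzyme that sets the pace of phosphatidylcholine synthesis, fell by 0.66 (unadjusted p = 0.0219, adjusted p = 0.259, limma). Between 12 and 24 months Pcyt2 differed by -0.35 (unadjusted p = 0.104, limma).

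Diacylglycerol kinases turn the product of the lipins back into phosphatidic acid, and 3 of 10 passed as higher and 0 as lower at 24 against 3 months in limma, where 11.4% of all genes passed as higher. Dgka was at 7.08 ± 0.786 FPKM at 24 months and 5.76 ± 0.303 FPKM at 3 months with no overlap (0.25, adjusted p = 0.168, limma). Dgke was higher by 0.35 (adjusted p = 0.242, limma). At 12 against 3 months 6 of 10 passed as higher, where again 11.4% of all genes did, among them Dgkq (14.6 ± 2.67 against 9.54 ± 0.536 FPKM, 0.55, adjusted p = 0.0862, limma) and Dgkg (6.20 ± 1.66 against 3.13 ± 0.927 FPKM, 0.80, adjusted p = 0.114, limma), both with no overlap. At 24 against 12 months 4 of 10 passed as lower, where 3.36% of all genes did, with Dgkd at -0.23 (unadjusted p = 0.00456, adjusted p = 0.667, limma) and Dgkg at -0.38 (unadjusted p = 0.0306, limma). The median log2 difference of this list was 0.12, 0.17 and -0.07 in the 3 comparisons. Markers of immune cells also moved with age. All 5 B lineage markers passed as higher at 24 and at 12 against 3 months (2 and 0 with an adjusted limma p under 0.05), and their sum ranged from 2.80 to 12.4 FPKM at 3 months, from 20.6 to 124 at 12 months and from 18.3 to 58.9 at 24 months, with none of them at 0 in any mouse. Of 3 T cell markers 1 passed as higher in each of these comparisons. Of 4 macrophage markers 0 passed at 24 and 1 at 12 against 3 months in limma, with sums of 12.5 to 15.7, 10.7 to 41.6 and 9.14 to 40.6 FPKM at the 3 ages. Their part in the values of the lipin pathway genes was not tested.

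Among 16 nuclear envelope genes 5 passed as higher and 1 as lower at 24 against 3 months, where 11.4% and 3.47% of all genes did (12.4% and 6.35% at a mean of at least 1 FPKM, which all 16 have). Sun1, an inner membrane protein that anchors the nucleus to the cytoskeleton, was higher by 0.21 (unadjusted p = 0.00887, limma) and Tmpo, a lamin-binding protein, by 0.33 (unadjusted p = 0.0244, limma). Syne2, the large outer membrane partner of Sun proteins, fell by 0.29 (52.02 ± 4.399 against 63.8 ± 6.12 FPKM, unadjusted p = 0.0084, limma). At 12 against 3 months Tmpo (0.41) and Tor1a (0.43), an ATPase of the nuclear envelope lumen, were higher and Syne2 lower (-0.22), 3 and 1 of 16 in all against 11.4% and 2.9% of all genes, and Lemd3 was the 1 gene higher at 24 than at 12 months (0.17, unadjusted p = 0.0419, limma). No adjusted p among these genes was under 0.157.

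No gene of the acylation, triacylglycerol, CDP-diacylglycerol and lipid phosphate phosphatase lists had an adjusted limma p under 0.05 in any comparison. Of all genes 11.4% passed as higher and 3.47% as lower at 24 against 3 months. These shares were 11.4% and 2.9% at 12 against 3 months, and 3.07% and 3.36% at 24 against 12 months. Of 9 genes for the acylation of glycerol phosphate, 1 passed as higher and 1 as lower at 24 against 3 months. At 12 against 3 months 1 passed as higher, and at 24 against 12 months 1 as lower. Gpam, the mitochondrial enzyme that starts the pathway, fell by 0.32 at 24 against 3 months (19.7 ± 2.68 against 24.9 ± 2.89 FPKM, adjusted p = 0.190, limma). Agpat4 was higher by 0.34 at 12 than at 3 months and lower by 0.24 at 24 than at 12 months (-0.24), with unadjusted limma p-values of 0.0254 and 0.0479. The 4 triacylglycerol synthesis genes and the 7 genes of the CDP-diacylglycerol branch gave 0 passes in each comparison in limma. Their largest differences were in Mogat2, an acyltransferase (0.39 at 24 against 3 months, 0.41 at 24 against 12 months), Dgat1, which makes triacylglycerol (-0.18 at 12 against 3 months), and Ptpmt1, a mitochondrial phosphatase (-0.40, 0.17 and -0.58 in the 3 comparisons). Of the 6 lipid phosphate phosphatases, which act on phosphatidic acid without being lipins, 1 passed as lower at 12 against 3 months. At 24 against 12 months 1 passed as higher, and 0 passed at 24 against 3 months. Of those with a mean of at least 1 FPKM 0 passed in limma. The largest differences there were in Plpp5 (-0.27 at 24 and -0.25 at 12 against 3 months) and Plpp1 (0.10 at 24 against 12 months).

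Of 13 lipid droplet and lipolysis genes, 1 passed as higher and 1 as lower at 24 against 3 months, where 11.4% and 3.47% of all genes did. At 12 against 3 months 1 passed as higher, where 11.4% of all genes did, and at 24 against 12 months 0 passed. G0s2, the inhibitor of adipose triglyceride lipase, was higher at 24 months (30.1 ± 19.1 against 11.05 ± 8.65 FPKM, 1.58, unadjusted p = 0.0405, adjusted p = 0.305, limma) and at 12 months (22.5 ± 7.15 FPKM, 1.35, unadjusted p = 0.0443, limma) than at 3 months, with overlapping mice. Bscl2, seipin of the lipid droplet neck, fell by 0.26 at 24 against 3 months (unadjusted p = 0.0266, limma), and Fitm1 differed by -0.67 between 12 and 24 months (unadjusted p = 0.414, limma). Among 10 transcription factors and kinases linked to lipins, 1 passed as higher and 1 as lower at 24 against 3 months. At 12 against 3 months 2 passed as higher and 1 as lower, where 11.4% and 2.9% of all genes did. At 24 against 12 months 2 passed as lower, where 3.36% of all genes did. Ppargc1b was higher by 0.38 and Csnk1d, a kinase, lower by 0.21 (-0.21) at 24 against 3 months, with unadjusted limma p-values of 0.0283 and 0.0239. At 12 against 3 months Ppargc1b (0.45) and Mtor (0.24), which phosphorylates Lpin1, were higher and Csnk1d lower (-0.23). At 24 against 12 months Mtor (-0.17, unadjusted p = 0.0162, limma) and Srebf2 (-0.27, unadjusted p = 0.0438, limma), the sterol transcription factor, were lower.

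**Figure D5:**
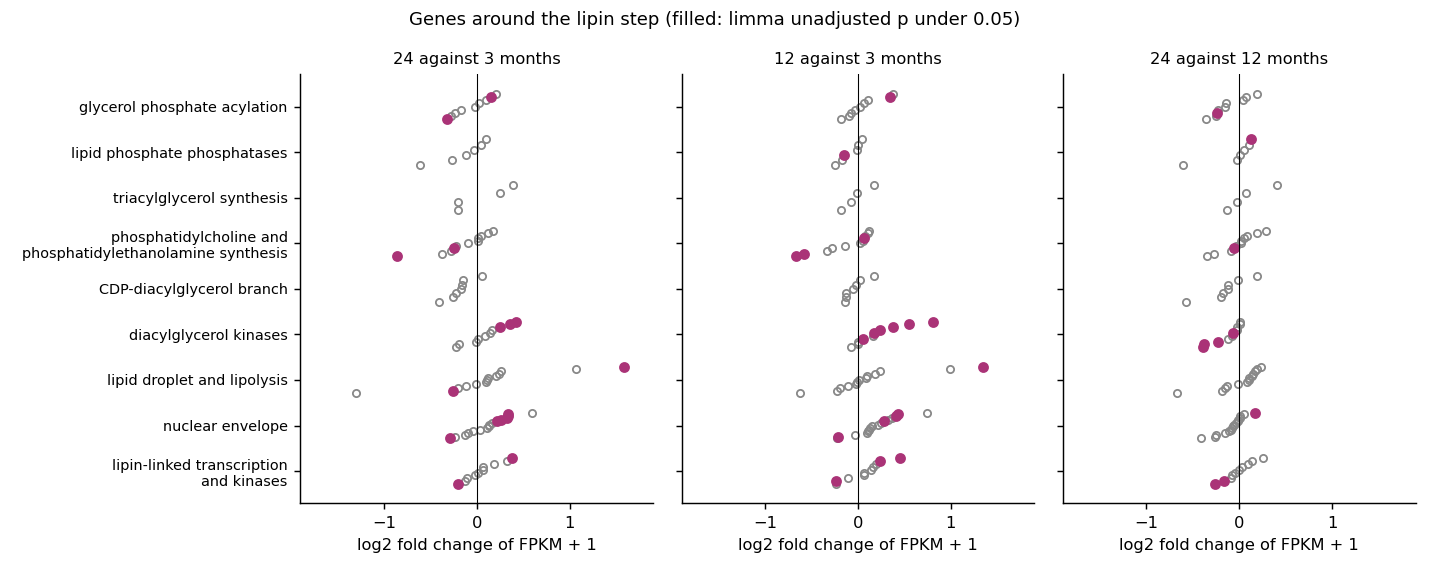
Log2 differences of FPKM + 1 (x axis) of the genes in 9 lists around the lipin step (rows), for 24 against 3, 12 against 3 and 24 against 12 months. Filled points had an unadjusted limma p under 0.05, with 17, 19 and 10 of 86 genes filled; in the diacylglycerol kinase row the filled points lie right of 0 in both comparisons with young mice and left of 0 in the third.

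Genes outside the lipin pathway that respond to the time of day, to feeding or to glucocorticoids were also examined. Of 14 clock genes 7 passed as higher and 3 as lower at 24 against 3 months, where 11.4% and 3.47% of all genes did. Arntl, the core activator, ranged from 8.30 to 16.7 FPKM at 3 months and from 0.510 to 3.72 FPKM at 24 months, and Dbp, a clock output factor, from 0.0624 to 2.14 FPKM at 3 months and from 6.44 to 23.7 FPKM at 24 months, neither with overlap. Of 9 fasting and glucocorticoid genes 3 passed as lower at 24 and 5 at 12 against 3 months, where 3.47% and 2.9% of all genes did, among them Fkbp5 (12.5 ± 4.87 FPKM at 3, 6.70 ± 2.58 at 12 and 4.97 ± 1.46 at 24 months). Lpin1 is itself known as a target of fasting and glucocorticoids. The part of these genes in the values of the lipin genes was not tested.

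Fat around the kidney also contains lipin RNA, so adipocyte markers were summed. The 8 markers together ranged from 13.04 to 57.2 FPKM at 3 months, from 18.2 to 56.0 at 12 months and from 24.4 to 45.4 at 24 months, so the ages overlapped. Car3 and Fabp4 made up most of this sum and were present in every mouse, while Adipoq, Plin1 and Retn were at 0 in mice 6, 7 and 20. The sum therefore does not show how much fat each sample held. None of the 8 passed in limma in any of the 3 comparisons (0 at an unadjusted p under 0.05). The most abundant, Car3, ranged from 3.55 to 32.7 FPKM at 3 months and from 6.28 to 16.1 FPKM at 24 months, and 6 of the 8 were at 0 in at least 1 mouse. The 4 brown adipocyte markers summed to at most 4.404 FPKM. Cfd, another of the 8, was picked outside the planned choice of the most abundant marker. It was at 4.44, 3.43 and 4.92 FPKM in mice 5, 8 and 34, where Lpin1 was highest (23.5, 23.6 and 22.8 FPKM). It was at most 0.0914 FPKM in mice 6, 7, 20 and 21 (Lpin1 15.6, 13.3, 15.9 and 12.0 FPKM). Cfd was highest in mouse 17 at 9.76 FPKM (Lpin1 18.6), and mice 18 and 31 had 1.69 and 2.63 FPKM (Lpin1 13.7 and 14.5). Adipoq, Plin1, Cidec and Retn were, like Cfd, lower in mice 6, 7, 20 and 21 than in mice 5, 8 and 34. Car3 and Fabp4 did not separate these mice. Car3 was at 20.2 FPKM in mouse 7 and 11.4 FPKM in mouse 8, and Fabp4 at 10.2 FPKM in mouse 21 and 8.42 FPKM in mouse 8. The part of fat in the lipin values was not tested.

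The genes most like Cnep1r1 over the 15 mice were found by Pearson's r on log2(FPKM + 1) among 13445 genes with a mean of at least 1 FPKM. For the gene value they were Elac1 (r = 0.89, rho = 0.73), Olfr1388 (0.80, 0.61), Gm26772 (0.80, 0.64), Gm44878 (0.80, 0.62) and Rin2 (0.80, 0.66). For ENSMUST00000095214 they were Faf1 (0.89, 0.92), Hspa5 (0.88, 0.88), Fh1 (0.88, 0.91), Ndrg1 (0.88, 0.88) and Cachd1 (0.87, 0.79). The 2 sets had no gene in common. The partners were not among the genes most like either, with r to the Cnep1r1 gene value of -0.02 for Ctdnep1, -0.08 for Lpin1, 0.23 for Lpin2 and -0.02 for Lpin3. To the transcript r was -0.11 for Ctdnep1, -0.03 for Lpin1, 0.34 for Lpin2 (rho 0.56) and 0.01 for Lpin3. All these points share library and age, and the values are a description over 15 mice.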

How the data were processed

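Groups were taken from the age labels; every sample title begins with 3MK, also for the 10 older mice, which goes against their age labels, while the names of the deposited columns carry the labelled age. The labels describe removal of ribosomal RNA and a stranded kit, while the study's methods describe oligo(dT) beads. Per the study's methods and labels, the authors trimmed reads with Cutadapt, mapped them to GRCm38 (Ensembl release 88; Bowtie2, HISAT2 and TopHat2 are named), assembled transcripts with StringTie and deposited FPKM and mean coverage per transcript. FPKM of overlapping transcripts depends on how StringTie divides shared reads. The authors also deposited estimated counts of circular RNAs, which were rounded; how they were made is not given in the sources used here. The signal column, coverage divided by FPKM, gave the aligned bases.

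The 5 genes, their transcripts and all gene lists were chosen with earlier results of these data known. Gene FPKM sums were tested over every gene with a value above 0 in 1 or more of the 10 mice with limma 3.58.1 (lmFit, eBayes with trend) on log2(FPKM + 1), with Benjamini-Hochberg adjustment over all of them. Passed means an unadjusted p under 0.05 and called also an absolute log2 change above 1. Fold changes on this scale understate those of low genes. The comparisons share mice. Circular RNAs above 0 in at least 5 of 10 mice were tested with edgeR 4.0.16 (quasi-likelihood, TMM), with DESeq2 1.42.0 as alternative, in R 4.3.3. Both fits were tested on simulated data. Named were the 5 genes, their transcripts with a mean of at least 0.5 FPKM, per list the 2 genes with the smallest p in each direction among those that passed with a mean of at least 1 FPKM, or the biggest change where none passed, and the 5 genes most like Cnep1r1. FPKM times length was added after seeing the data. FPKM carry no read counts, so no counting interval is given and the spread of 5 mice sets the precision. Sequences are from GENCODE M21.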

Additional observations from a re-analysis of the deposited data

Results flagged for a closer look

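A single mouse stood far from the other 4 of its age in 7 member values; chance alone marks about 1 in 20 groups this way, and many groups were examined. Cnep1r1 was at 12.127 FPKM in mouse 31, against 5.31 to 7.20 FPKM in the other old mice. Its coding transcript ENSMUST00000121097 was at 1.1075 FPKM in mouse 7, against 0.525 to 0.677 in the other young mice. For Ctdnep1, mouse 6 had 13.654 FPKM of ENSMUST00000108593, against 0.000822 to 0.211 in the other young mice, and 3.7511 FPKM of ENSMUST00000138246, against 0.0346 to 0.607. MSTRG.6115.4 of Ctdnep1 was at 9.5278 FPKM in mouse 21, against at most 0.704 in the other 12-month-old mice, and at 21.921 FPKM in mouse 35, against at most 0.0862 in the other old mice. In mice 6, 21 and 35 the transcript spanning Ctdnep1 and Gabarap was listed at 0. ciRNA105 of Lpin2 was at 12.656 CPM in mouse 21, against 18.02 to 20.04 in the other 12-month-old mice.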

How the results depend on the processing

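No paired analysis was possible because the ages share no replicate numbers. For the share of ENSMUST00000095214 in Cnep1r1 only FPKM times length and leaving out each mouse were tried, and its difference kept its direction in these. At 24 against 3 months the difference lay between -54.7 and -50.2 percentage points with 1 mouse left out. As the gene was chosen on this transcript, these values are a description. For the Cnep1r1 gene, exact-match transcripts alone gave -1.52, -0.48 and -1.04 at 24 against 3, 12 against 3 and 24 against 12 months. A pseudocount of 0.1 gave ENSMUST00000095214 -2.67 and -0.84 against 3 months.

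Of the 86 pathway genes, 9 passed with exact-match transcripts alone at 24 against 3 months, and 6 passed at 24 against 12 months both with a mean of at least 1 FPKM and with TPM. Leaving out 1 mouse gave 10 to 16, 14 to 18 and 5 to 11 in the 3 comparisons. On FPKM times length 0 partner genes passed at 24 against 3 months and 2 (Lpin1 and Lpin2) at 12 against 3 months, and leaving out 1 mouse gave 1 to 1, 1 to 2 and 0 to 1. A pseudocount of 0.1 left 1 partner transcript at 24 against 12 months, and leaving out 1 mouse gave 2 to 5, 5 to 11 and 0 to 3. For the circular RNAs it gave 0 to 2, 4 to 9 and 1 to 5.

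Differences that changed sign belonged to genes that did not pass. With exact-match transcripts alone Ctdnep1 was at 1.05 (12 against 3 months) and -0.65 (24 against 12 months) and Lpin1 at 0.32 and 0.27 (24 and 12 against 3 months). Ctdnep1 with Gabarap was at -0.10 at 24 against 3 months, and Lpin3 on FPKM times length at -0.032 at 24 against 12 months. With 1 mouse left out, at 24 against 3 months Ctdnep1 ranged from -0.022 to 0.34 and Lpin1 from -0.18 to 0.015, and Lpin3 ranged from -0.0068 to 0.16, from -0.018 to 0.15 and from -0.048 to 0.068 in the 3 comparisons. The exact-match set holds fewer transcripts, and the cause of the sign changes was not tested.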
